A study of Mus musculus with 6 samples.

Results

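The 30 genes described here are those of sterol and fatty acid synthesis and of its control by the SREBP transcription factors, and each had at least 1 probe of its name on the array. They fall into 20 sterol genes and 10 fatty acid genes. Each of the 30 was among the 21562 genes with a probe that passed the filter on dim spots, namely one whose spots stood well above background on 3 or more arrays. The array held 46 probes of the 30 genes, of which 44 passed, and each gene is given by its brightest passing probe. The arrays, 1-colour Agilent arrays on 1 slide, measured total RNA of mouse embryonic stem (ES) cells in 3 dishes of TKO cells, a triple knockout of Tet1, Tet2 and Tet3, and 3 dishes of WT cells of the line BJ FF2 ES, from which the TKO cells came. Tet1, Tet2 and Tet3 encode the enzymes that oxidise 5-methylcytosine in DNA. All dishes were kept in 2i medium on inactivated mouse embryonic feeder cells, which were removed before the cells were collected from matrigel. Which exons each knockout altered, and whether the TKO cells are 1 clone, is not given in the labels. P-values therefore measure the spread between dishes of 1 WT line and of cells made from it.

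Sterol synthesis builds cholesterol from acetyl-CoA through mevalonate, the isoprenoid farnesyl diphosphate, squalene and lanosterol. Fatty acid synthesis starts from the same cytosolic acetyl-CoA, which ATP citrate lyase makes from citrate, and ends in palmitate, which elongases and desaturases then modify. Both are driven by the SREBPs, membrane-bound precursors that are cut and enter the nucleus when sterols are scarce. The INSIG proteins hold the precursors in the endoplasmic reticulum when sterols are plentiful. SREBP-2 (Srebf2) acts mainly on sterol genes and SREBP-1 (Srebf1) mainly on fatty acid genes. Dividing cells use both routes to make membrane.

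Levels are log2 intensities relative to the 75th percentile of the same array, and differences are log2 levels of TKO minus WT with their standard error (SE) from limma, with n = 3 dishes in each group. A gene was called where the Benjamini-Hochberg adjusted p of limma over all 21562 genes was under 0.05. A level says how bright 1 probe was and is compared only with the same probe on other arrays. The 75th percentile of the processed signal was 367 to 414 intensity units, the share of spots well above background was 51.9% to 58.5%, and 0 spots were saturated. The first row of the slide held TKO replicate 1 and the 3 WT arrays, and the second row held TKO replicates 2 and 3. The brightest probes of Tet1 and Tet2 differed by -1.37 ± 0.0438 and -2.94 ± 0.0541 (SE), whereas that of Tet3 differed by -0.24 ± 0.0982 and did not pass the test. A probe outside the altered part of its gene checks nothing. All 10 genes of a list of ES cell markers were well above background on every array, with a summed linear level of 742 to 803 in TKO dishes and 953 to 1027 in WT dishes. Most of that gap lay in Zfp42, which fell by 4.07 on the log2 scale. The other 9 markers summed to 731 to 792 in TKO dishes and 773 to 848 in WT dishes. Of the 10, 5 fell, the largest after Zfp42 being Esrrb (-0.49 ± 0.0481 SE) and Pou5f1 (-0.42 ± 0.102 SE). Another 3 rose (Fgf4, Lin28a and Sall4) and 2 did not pass. That is 50% lower and 30% higher, against 29.9% and 29.7% of all genes. Of 14 fibroblast markers, which stand for feeder cells, 13 were well above background on every array and Lum on none. Their summed linear level was 55.0 to 57.6 in TKO dishes and 38.2 to 39.1 in WT dishes. The markers did not all move together: of 13 tested, 9 rose, 1 fell and 3 did not pass. Acta2, whose probe weighs most in the summed level of TKO dishes, rose the most (1.20 ± 0.0586 SE), and Pdgfrb fell (-2.26 ± 0.153 SE). The part of the difference in summed level in the results was not tested. In bulk RNA, fewer cells of a type and less RNA per cell cannot be told apart.

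The sterol genes moved in both directions. Of the fatty acid genes, Srebf1 and the enzymes Acly, Acaca and Fasn, all on chromosome 11, were higher in TKO. The elongases and desaturases were mixed. Among the 20 sterol genes, 7 rose, 7 fell and 6 did not pass the test, with a median difference of 0.04. Among the 10 fatty acid genes, 6 rose, 3 fell and 1 did not pass, with a median difference of 0.59. Of all 21562 genes tested, 59.7% were called, 29.7% as higher and 29.9% as lower, with a median difference of -0.01. The sterol counts thus lie near the shares of the array as a whole. The 3 TKO values and the 3 WT values did not overlap in 15 of the 20 sterol genes and 10 of the 10 fatty acid genes, against 67.6% of all genes. All TKO values lay above all WT values in 8 sterol and 7 fatty acid genes, against 33.3% of all genes, and below them in 7 sterol and 3 fatty acid genes, against 34.3%. At least 1.5-fold higher and called were 2 sterol and 5 fatty acid genes, against 14.1% of all genes. At least 1.5-fold lower and called were 5 sterol genes, against 12.6% of all genes, and the largest fall of a fatty acid gene was that of Elovl5 by 0.34 on the log2 scale. With each array centred on its median, which moves the median of all genes to -0.21, the sterol genes counted 3 higher and 8 lower and all genes 3835 higher and 9373 lower, while the fatty acid genes still counted 6 and 3.

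**Figure D1:**
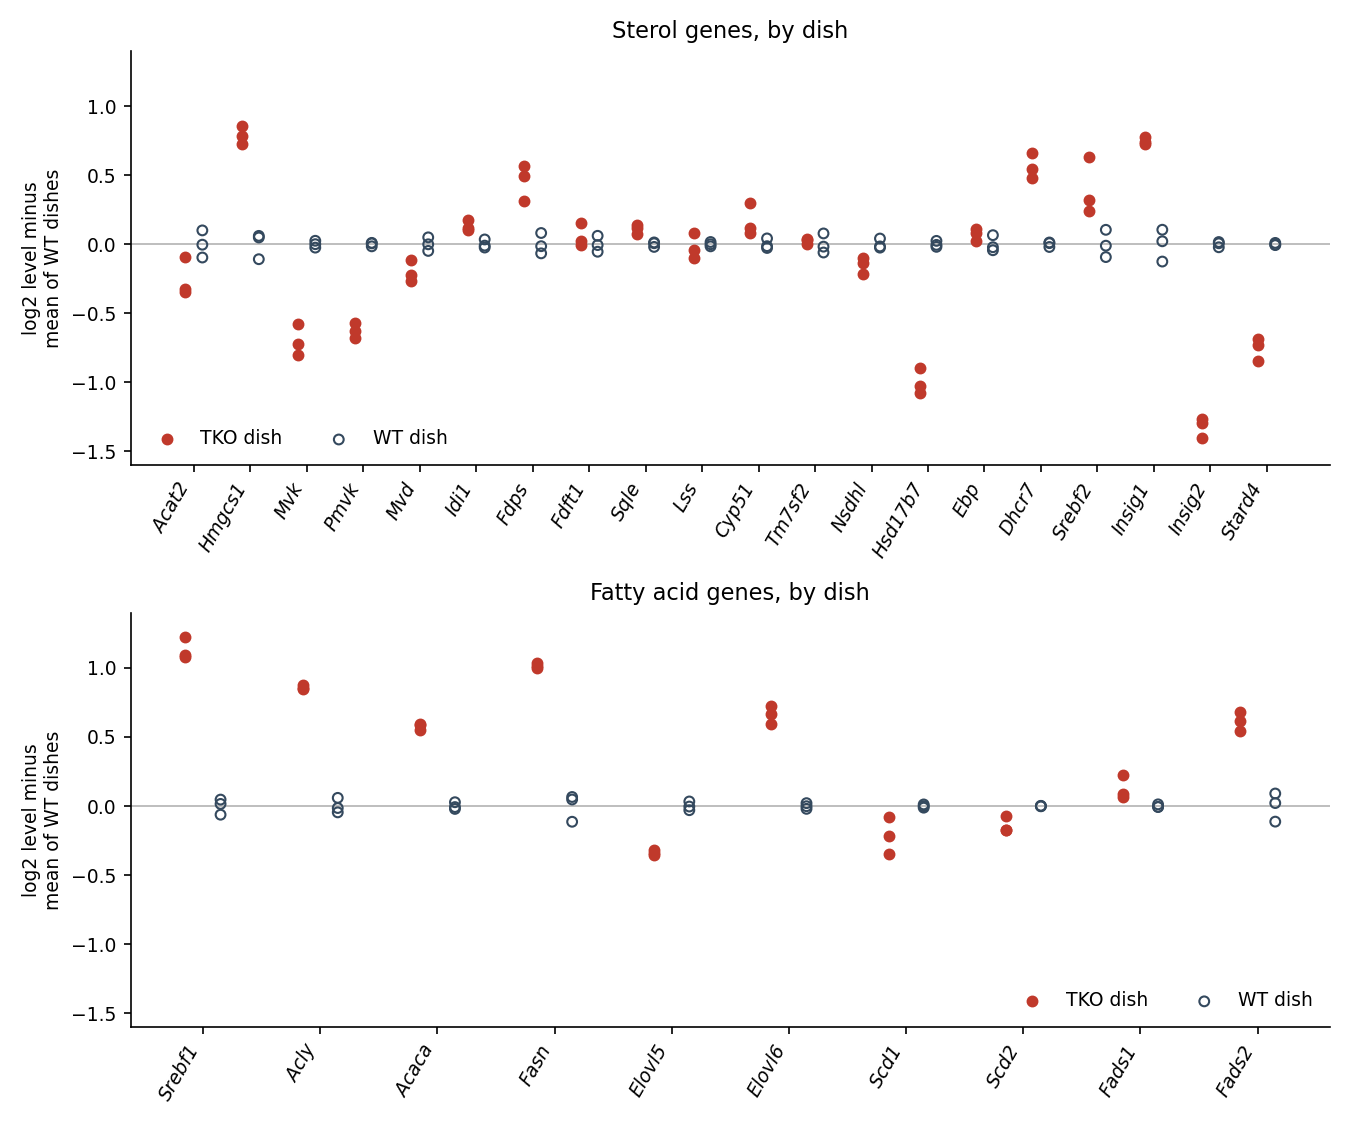
Log2 level of each gene in each dish minus the mean of the 3 WT dishes (y axis), for 20 sterol genes (upper panel) and 10 fatty acid genes (lower panel) in pathway order along the x axis, with TKO dishes as filled points and WT dishes as open points. Insig2, Hsd17b7, Stard4, Mvk and Pmvk lie below their WT dishes and Hmgcs1, Insig1 and Dhcr7 above them, and the 4 genes at the left of the lower panel all lie above.

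The promoters of 5 genes, picked by hand among those with large differences of either direction, are shown. Hmgcs1, Insig1 and Fasn were higher in TKO, and Insig2 and Hsd17b7 were lower. Srebf1 (1.13) and Acly (0.86) rose more than Hmgcs1 and Insig1 and also have RefSeq promoters, but are not printed. Each run is the 250 bases before the RefSeq start of the gene in build GRCm38.p6, read 5′ to 3′ on the gene's strand, with Hmgcs1 at chr13:119690101-119690350 (plus strand), Insig1 at chr5:28071162-28071411 (plus strand), Fasn at chr11:120824548-120824797 (minus strand), Insig2 at chr1:121332590-121332839 (minus strand), Hsd17b7 at chr1:169969206-169969455 (minus strand). Insig2 has 3 entries in the RefSeq table and the first is printed. Capitals mark matches, on either strand, to 3 motifs: TCACNCCAC, a form of the sterol regulatory element bound by SREBPs, CCAAT (or ATTGG), the box bound by NF-Y, a usual partner of SREBPs, and CACGTG, an E-box.
Hmgcs1: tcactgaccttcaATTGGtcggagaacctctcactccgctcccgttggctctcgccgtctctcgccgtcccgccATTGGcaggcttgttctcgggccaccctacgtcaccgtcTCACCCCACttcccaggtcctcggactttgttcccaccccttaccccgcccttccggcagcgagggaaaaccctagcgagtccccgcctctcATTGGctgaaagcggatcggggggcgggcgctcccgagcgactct
Insig1: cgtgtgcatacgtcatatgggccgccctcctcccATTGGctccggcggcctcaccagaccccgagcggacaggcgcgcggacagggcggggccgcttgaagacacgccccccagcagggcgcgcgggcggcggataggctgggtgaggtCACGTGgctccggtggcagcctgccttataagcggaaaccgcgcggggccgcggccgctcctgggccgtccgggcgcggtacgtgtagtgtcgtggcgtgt
Fasn: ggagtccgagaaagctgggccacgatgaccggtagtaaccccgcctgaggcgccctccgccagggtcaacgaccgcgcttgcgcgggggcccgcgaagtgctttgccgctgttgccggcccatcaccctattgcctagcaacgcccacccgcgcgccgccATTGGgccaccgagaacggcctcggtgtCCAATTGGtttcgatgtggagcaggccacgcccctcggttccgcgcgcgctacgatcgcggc
Insig2: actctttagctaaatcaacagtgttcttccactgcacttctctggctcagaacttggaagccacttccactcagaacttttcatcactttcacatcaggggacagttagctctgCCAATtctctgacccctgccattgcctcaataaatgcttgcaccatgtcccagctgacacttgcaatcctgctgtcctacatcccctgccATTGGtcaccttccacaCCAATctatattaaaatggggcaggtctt
Hsd17b7: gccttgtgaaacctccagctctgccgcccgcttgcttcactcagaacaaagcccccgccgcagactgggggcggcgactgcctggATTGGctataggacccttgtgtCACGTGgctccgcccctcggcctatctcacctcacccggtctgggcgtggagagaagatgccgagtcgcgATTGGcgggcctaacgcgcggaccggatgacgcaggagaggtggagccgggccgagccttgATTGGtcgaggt
RefSeq promoters were found for 23 of the 30 genes, with 30 entries in all. In the 250 bases before the start, TCACNCCAC stood in 1 of the 30 entries, that of Hmgcs1 (3.33%), against 1.05% of 32851 mouse promoters. CCAAT stood in 19 of the 30 (63.3%), against 33.8% of all, and CACGTG in 4 (13.3%), against 6.02% of all. The E-box entries were those of Dhcr7, Elovl5, Hsd17b7 and Insig1, of which 2 were higher in TKO and 2 lower. In Fasn a CCAAT and an ATTGG overlap. CCAAT was found in genes of both directions, including Hmgcs1, Insig1 and Fasn as well as Insig2, Hsd17b7, Mvk and Pmvk. Of the 3 Insig2 entries only the printed one held it, and of the 2 Pmvk entries only the first. These are matches of letters in a short window, and a promoter without one may hold other forms of the motif.

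The early enzymes, from acetyl-CoA to squalene, gave 3 rises (37.5%), 3 falls (37.5%) and 2 genes that did not pass, against 29.7% higher and 29.9% lower of all genes. Hmgcs1, which joins acetyl-CoA and acetoacetyl-CoA to HMG-CoA, had levels of 5.58, 5.52 and 5.65 in the TKO dishes, against 4.86, 4.69 and 4.85 in the WT dishes. All TKO values lay above all WT values. The difference was 0.79 ± 0.0644 (SE; limma adjusted p = 0.000187), which is 1.72-fold higher. The Hmgcs1 probe is listed on an unplaced part of chromosome 13 of build mm9, and its second probe was not well above background on any array. Fdps, which makes farnesyl diphosphate, had levels of 5.77, 5.59 and 5.84 in TKO, against 5.35, 5.21 and 5.26 in WT, a difference of 0.46 ± 0.0791 (SE; limma adjusted p = 0.00386). Its groups did not overlap, but with arrays centred on their medians the difference was 0.26 and did not pass. Idi1, which interconverts the isoprenoid building blocks, rose by 0.13 ± 0.0392 (SE), and centring on the median turned that to -0.06.

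The kinases of mevalonate, which act in sequence between Hmgcs1 and Fdps, moved the other way. Mvk, mevalonate kinase, had levels of 3.79, 3.65 and 3.57 in TKO, against 4.34, 4.39 and 4.37 in WT. Its difference was -0.70 ± 0.0641 (SE; limma adjusted p = 0.000291), 1.62-fold lower in TKO. Pmvk, phosphomevalonate kinase, had levels of 4.78, 4.67 and 4.72 in TKO, against 5.36, 5.33 and 5.35 in WT. Its difference was -0.62 ± 0.0419 (SE; limma adjusted p = 8.63e-05). For both kinases every TKO dish was below every WT dish, and a second probe gave -0.75 for Mvk and -0.63 for Pmvk. The main probes lie on chromosome 5 at 114910540 to 114910599 (Mvk) and on chromosome 3 at 89272867 to 89272926 (Pmvk) in mm9, per the file headers. Mvd, the decarboxylase that follows them, fell by 0.20 ± 0.0543 (SE; limma adjusted p = 0.0213) on the log2 scale. It lies on chromosome 8, whose 1180 tested genes had a median difference of -0.22, and it lay 0.02 above that median. With chromosome medians subtracted, that is the median level of the genes of each chromosome on each array, the difference of Mvd was 0.14 and did not pass. Acat2, the cytosolic thiolase (-0.25 ± 0.0898 SE), and Fdft1, squalene synthase (0.05 ± 0.0589 SE), did not pass, and their groups overlapped.

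The enzymes from squalene to cholesterol gave 2 rises, 2 falls and 4 genes that did not pass. That is 25% higher and 25% lower, near the 29.7% and 29.9% of all genes. Dhcr7, which reduces 7-dehydrocholesterol to cholesterol, had levels of 1.75, 1.56 and 1.63 in TKO, against 1.1, 1.09 and 1.06 in WT. The groups did not overlap, and the difference was 0.56 ± 0.0553 (SE; limma adjusted p = 0.000382), 1.48-fold higher in TKO. Hsd17b7, a 3-ketosteroid reductase of the pathway, had levels of -1.65, -1.70 and -1.52 in TKO, against -0.64, -0.63 and -0.60 in WT, a difference of -0.999 ± 0.0561 (SE; limma adjusted p = 4.55e-05). Its probes differed among themselves: another gave -1.42 ± 0.154 (SE), and the remaining one gave -0.21 ± 0.139 (SE) with overlapping groups. The brightest lies on chromosome 1 at 171883182 to 171883241 in mm9. With chromosome medians subtracted, the difference of Hsd17b7 was -0.78, and with another background correction (normexp) it was -0.73. The median of all 1243 tested genes of chromosome 1 was -0.12. The 106 tested genes within 5 Mb of Hsd17b7 had a median difference of 0.11.

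Smaller differences filled the rest of this stretch. Sqle, squalene epoxidase, rose by 0.11 ± 0.0364 (SE; limma adjusted p = 0.0425), a call kept in 5 of 18 alternatives. Nsdhl, a sterol 4-demethylation enzyme, fell by 0.15 ± 0.0459 (SE) on the log2 scale, while its second probe gave 0.10 ± 0.138 (SE) with overlapping groups. Lss, lanosterol synthase (-0.02), Cyp51, lanosterol demethylase (0.17), Tm7sf2, a sterol reductase (0.02), and Ebp, sterol isomerase (0.07), did not pass. Cyp51 was above WT in every TKO dish, and the groups of Lss, Tm7sf2 and Ebp overlapped.

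The INSIG genes, whose products both retain the SREBP precursors, moved in opposite directions. Insig1, itself a known SREBP target, had levels of 0.61, 0.56 and 0.57 in TKO, against -0.30, -0.15 and -0.07 in WT, and rose by 0.75 ± 0.0661 (SE; limma adjusted p = 0.000251), 1.68-fold. Insig2 had levels of 1.4, 1.37 and 1.27 in TKO, against 2.68, 2.65 and 2.68 in WT, and fell by 1.32 ± 0.0477 (SE; limma adjusted p = 1.05e-05) on the log2 scale, 2.50-fold. Neither pair of groups overlapped. The Insig2 difference was the widest of the 30 genes, and a second probe gave -1.498. Its probe lies on chromosome 1 at 123201085 to 123201144 in mm9, where 32 tested genes within 5 Mb had a median difference of -0.52. With chromosome medians subtracted, the difference of Insig2 was -1.11.

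Srebf2, which encodes SREBP-2, had levels of 1.48, 1.17 and 1.09 in TKO, against 0.75, 0.84 and 0.95 in WT. The rise of 0.40 ± 0.116 (SE; limma adjusted p = 0.0282) was uneven, with TKO replicate 1 above the other two. A second probe gave 0.10 ± 0.116 (SE) with overlapping groups, and the call was lost in 6 of 18 alternatives, among them those without WT replicate 1 or WT replicate 2. Stard4, a cytosolic carrier of cholesterol, had levels of 0.59, 0.48 and 0.64 in TKO, against 1.33, 1.32 and 1.32 in WT. Its groups were clearly apart, and it fell by 0.75 ± 0.0506 (SE; limma adjusted p = 8.61e-05), 1.69-fold. A second Stard4 probe gave -0.57.

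**Figure D2:**
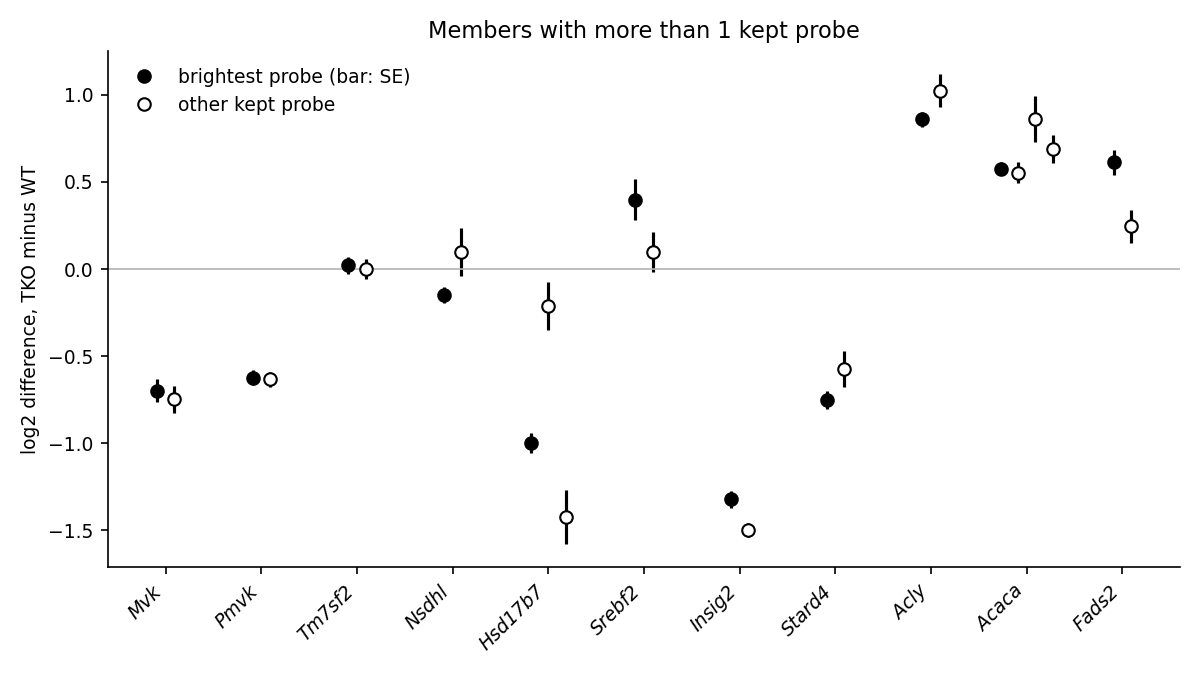
Log2 difference of TKO minus WT (y axis) for each kept probe of the 11 genes with more than 1 (x axis), with the brightest probe filled, other probes open and bars for SE. The probes of Hsd17b7 span -1.42 to -0.21, and those of Mvk (-0.70 and -0.75) and Pmvk (-0.62 and -0.63) lie close to each other.

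Among the 10 fatty acid genes, all 4 of the route from citrate to palmitate rose, counting the SREBP-1 gene. Srebf1 had levels of -1.12, -1.26 and -1.25 in TKO, against -2.40, -2.29 and -2.32 in WT. Its difference was 1.13 ± 0.0571 (SE; limma adjusted p = 3.11e-05), 2.19-fold higher. With normexp background correction it was 0.67. Acly, ATP citrate lyase, had levels of 6.41, 6.38 and 6.38 in TKO, against 5.59, 5.49 and 5.52 in WT. The groups of both lay apart. The Acly difference was 0.86 ± 0.0414 (SE; limma adjusted p = 2.65e-05), 1.81-fold, and a second probe gave 1.02. Acaca, acetyl-CoA carboxylase, which makes malonyl-CoA, had levels of 4.5, 4.51 and 4.46 in TKO, against 3.91, 3.89 and 3.94 in WT. It rose by 0.58 ± 0.0349 (SE; limma adjusted p = 6.03e-05), and its 3 other probes, of which 1 overlaps the brightest, gave 0.55 to 0.86. Fasn, fatty acid synthase, had levels of 0.32, 0.30 and 0.34 in TKO, against -0.81, -0.65 and -0.63 in WT. The difference was 1.02 ± 0.0579 (SE; limma adjusted p = 4.78e-05), 2.02-fold, and 0.80 with normexp background correction. Every TKO dish was above every WT dish for Acaca and Fasn.

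These 4 genes all lie on chromosome 11, most of whose genes were higher in TKO. The 1616 tested genes of chromosome 11 had a median difference of 0.34, with 57.4% called higher and 14% lower. The 4 genes lay above that median by 0.79 (Srebf1), 0.52 (Acly), 0.24 (Acaca) and 0.68 (Fasn). Genes within 5 Mb had median differences of 0.27 around Srebf1, 0.38 around Acly, 0.47 around Acaca and 0.36 around Fasn. With chromosome medians subtracted, the differences were 0.69, 0.42, 0.14 and 0.58 in the same order, and all 4 were still called, Acaca with a limma adjusted p of 0.0197. With the median shift of each chromosome subtracted instead, an alternative chosen after seeing the data, they were 0.79, 0.52, 0.24 and 0.68 (limma adjusted p from 0.000105 to 0.00225). The 6 fatty acid genes on other chromosomes counted 2 rises, 3 falls and 1 not called, with a median difference of -0.01, against 0.94 for the 4 on chromosome 11. What part of the rises belongs to the chromosome was not tested.

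**Figure D3:**
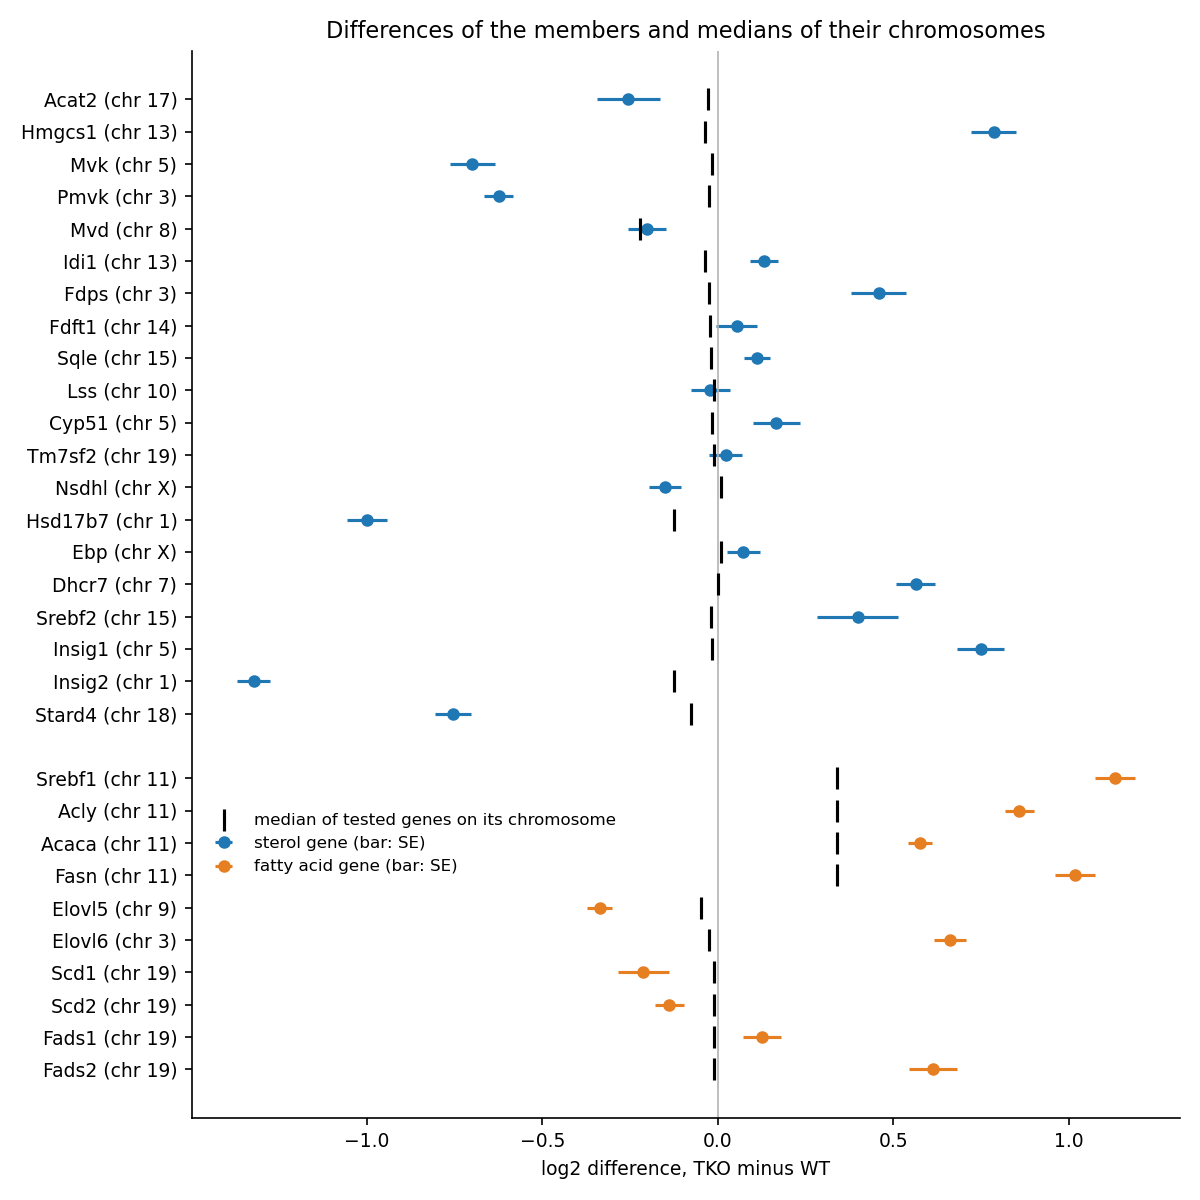
Log2 difference of TKO minus WT (x axis, bars for SE) of each of the 30 genes (y axis, with its chromosome), beside the median difference of all tested genes of that chromosome (vertical tick). The 4 fatty acid genes of chromosome 11 lie right of a tick at 0.34, and Mvd lies beside its tick.

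The elongases and desaturases, which lengthen and unsaturate fatty acids, did not move together. Elovl6, which elongates palmitate, had levels of 4.55, 4.5 and 4.43 in TKO, against 3.83, 3.81 and 3.85 in WT, and rose by 0.66 ± 0.0444 (SE; limma adjusted p = 8.63e-05), 1.58-fold. Elovl5, which elongates polyunsaturated fatty acids, had levels of 2.98, 3.00 and 2.97 in TKO, against 3.29, 3.31 and 3.35 in WT. It fell by 0.34 ± 0.0356 (SE; limma adjusted p = 0.000515) on the log2 scale. Neither pair of groups overlapped. Fads2, delta-6 desaturase, had levels of -0.04, -0.12 and 0.02 in TKO, against -0.64, -0.77 and -0.57 in WT. The Fads2 groups lay apart, with a rise of 0.61 ± 0.0685 (SE; limma adjusted p = 0.000652), while a second probe gave 0.24 ± 0.0929 (SE) and did not pass.

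The stearoyl-CoA desaturases Scd1 and Scd2, which make oleate and palmitoleate, were slightly lower. Scd1 had levels of 2.10, 1.83 and 1.96 in TKO, against 2.16, 2.17 and 2.19 in WT, and Scd2 had levels of 6.20, 6.10 and 6.10 in TKO, against 6.27, 6.27 and 6.27 in WT. All TKO values were below all WT values in both. The differences were -0.21 ± 0.0722 (SE; limma adjusted p = 0.0477) and -0.14 ± 0.0416 (SE; limma adjusted p = 0.0318), but the calls were kept in only 6 (Scd1) and 8 (Scd2) of 18 alternatives. With chromosome medians subtracted the differences were -0.12 and -0.04. Fads1, delta-5 desaturase, differed by 0.13 ± 0.0531 (SE) and did not pass, though every TKO value was above WT. Scd1, Scd2 and Scd3 are close copies of one another, and whether their probes cross-hybridise was not tested.

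The second row of the slide held TKO arrays alone, so the row as a block and the first row alone give the same differences, those of TKO replicate 1 against the 3 WT dishes. That dish alone had the same direction as the whole in each of the 23 called genes. This follows from their groups not overlapping and is no check on the row. With the row as a block, the TKO arm was thus 1 array. Cyp51 then went from 0.17 in the reported fit to 0.30, Fads1 from 0.13 to 0.23 and Sqle from 0.11 to 0.14. Differences that shrank included those of Mvd (from -0.20 to -0.12) and Nsdhl (from -0.15 to -0.098). Scd1 also shrank, from -0.21 to -0.077, and Scd2 from -0.14 to -0.073. The spread within groups was small: the median SD over the 30 genes was 0.071 in TKO and 0.034 in WT, and TKO had the larger SD in 21 of them. The TKO arrays span both rows and the WT arrays only the first, so spread between TKO dishes and between rows cannot be told apart. Called in every one of 18 alternative settings were 8 sterol genes (Hmgcs1, Dhcr7 and Insig1 higher, Mvk, Pmvk, Hsd17b7, Insig2 and Stard4 lower) and 7 fatty acid genes (all 4 on chromosome 11, Elovl6 and Fads2 higher, Elovl5 lower). The other 8 called genes lost the call in at least 1 setting. Of the 18, Fdps kept it in 17 and Srebf2 in 12. Mvd, Idi1 and Scd2 kept it in 8, Nsdhl in 7, Scd1 in 6 and Sqle in 5.

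**Figure D4:**
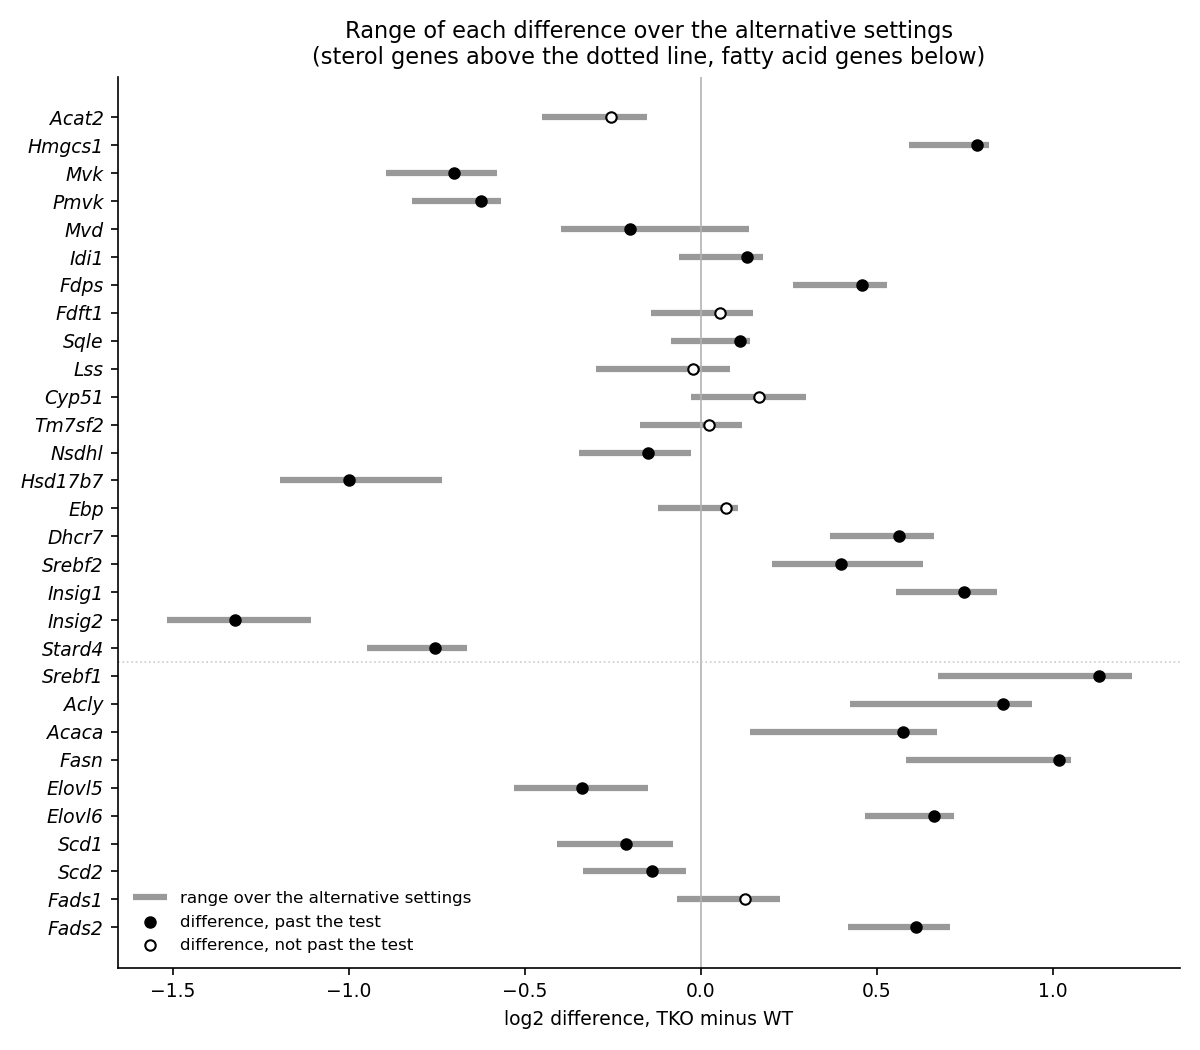
Log2 difference of TKO minus WT (x axis) for each of the 30 genes (y axis), with the range over 18 alternative settings as a grey bar and the reported value as a point, filled where it passed the test. The bars of Mvd, Idi1, Fdft1, Sqle, Lss, Cyp51, Tm7sf2, Ebp and Fads1 cross 0.

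Around the synthesis genes, other parts of lipid metabolism were measured. Of 9 further sterol and isoprenoid synthesis genes, 5 rose (55.6%) and 4 fell (44.4%), against 29.7% and 29.9% of all genes. Among them Pdss2 (1.22 ± 0.0433 SE) and Ggps1 (0.94 ± 0.0436 SE), which make the side chain of ubiquinone and geranylgeranyl diphosphate, and Sc5d (0.76 ± 0.0442 SE), a sterol desaturase, were higher in TKO. Dhdds (-0.78 ± 0.0507 SE), of dolichol synthesis, Msmo1 (-0.38 ± 0.0536 SE), the sterol methyl oxidase, and Pdss1 (-0.37 ± 0.0412 SE) were lower. Of 11 tested genes of SREBP processing and sterol sensing, 6 rose (54.5%) and 5 fell (45.5%). With arrays centred on their medians 2 rose and 5 fell, against 17.8% and 43.5% of all genes in that setting. Nr1h3, the sterol sensor LXR alpha (0.80), and Mbtps2, a protease that cuts SREBPs (0.33), rose, while Erlin2 (-0.61), Rnf139 (-0.39) and Erlin1 (-0.32) fell.

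In sterol uptake, transport and efflux, 4 of 19 tested genes rose (21.1%), 7 fell (36.8%) and 8 did not pass, against 29.7% higher and 29.9% lower of all genes. Apoe, the apolipoprotein (1.23 ± 0.0335 SE), and Npc1, of cholesterol exit from lysosomes (1.14 ± 0.101 SE), were higher, and so was Stard3 (0.63), a gene of chromosome 11. Lower were Abca1, the cholesterol efflux pump (-1.13 ± 0.113 SE), Lrp8 (-0.52) and Osbpl2 (-0.47). With arrays centred on their medians 11 of the 19 fell, against 43.5% of all genes in that setting, and with the array row as a block 2 did, against 24% of all genes. Of 23 tested other fatty acid synthesis genes, 5 rose (21.7%) and 11 fell (47.8%), against the same 29.7% and 29.9%. Median centring gave 17 falls among them, against the same 43.5%. Acss2, which makes acetyl-CoA from acetate in the cytosol, fell by 1.56 ± 0.0784 (SE) on the log2 scale, and Oxsm, of mitochondrial fatty acid synthesis, fell by 1.496 ± 0.0713 (SE). Ptplad2 (-0.96) was also lower, while Fads3 (0.83), Ptplb (0.69) and Scd3 (0.56) were higher. In the reported fit Scd3 was thus higher and Scd1 and Scd2 slightly lower. The Scd1 and Scd2 calls were kept in only 6 and 8 of 18 alternatives.

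Among genes that use fatty acids, more were called lower than higher. In activation and lipid assembly 11 of 19 tested genes fell and 4 rose, and in fatty acid oxidation 14 of 23 fell and 6 rose, against 29.9% and 29.7% of all genes. With the first row of arrays alone, 6 and 9 of them fell, against 23% of all genes in that setting. With arrays centred on their medians 2 oxidation genes rose, against 17.8% of all genes. Among activation genes Dgat2, of triglyceride synthesis (-1.10 ± 0.0485 SE), Acsl1 (-1.09 ± 0.0705 SE) and Acsl6 (-0.79) were lower and Acsl4 (1.09 ± 0.0426 SE), Fabp3 (1.01 ± 0.0504 SE) and Acsl5 (0.52) higher. Among oxidation genes Decr1 (-0.95), Acaa2 (-0.91) and Acadm, the medium-chain dehydrogenase (-0.81), were lower, and Ehhadh (0.90), Slc25a20, the carnitine carrier (0.85), and Acadvl, on chromosome 11 (0.55), were higher. These lists are described by their counts and medians, and no list was tested as a set.

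**Figure D5:**
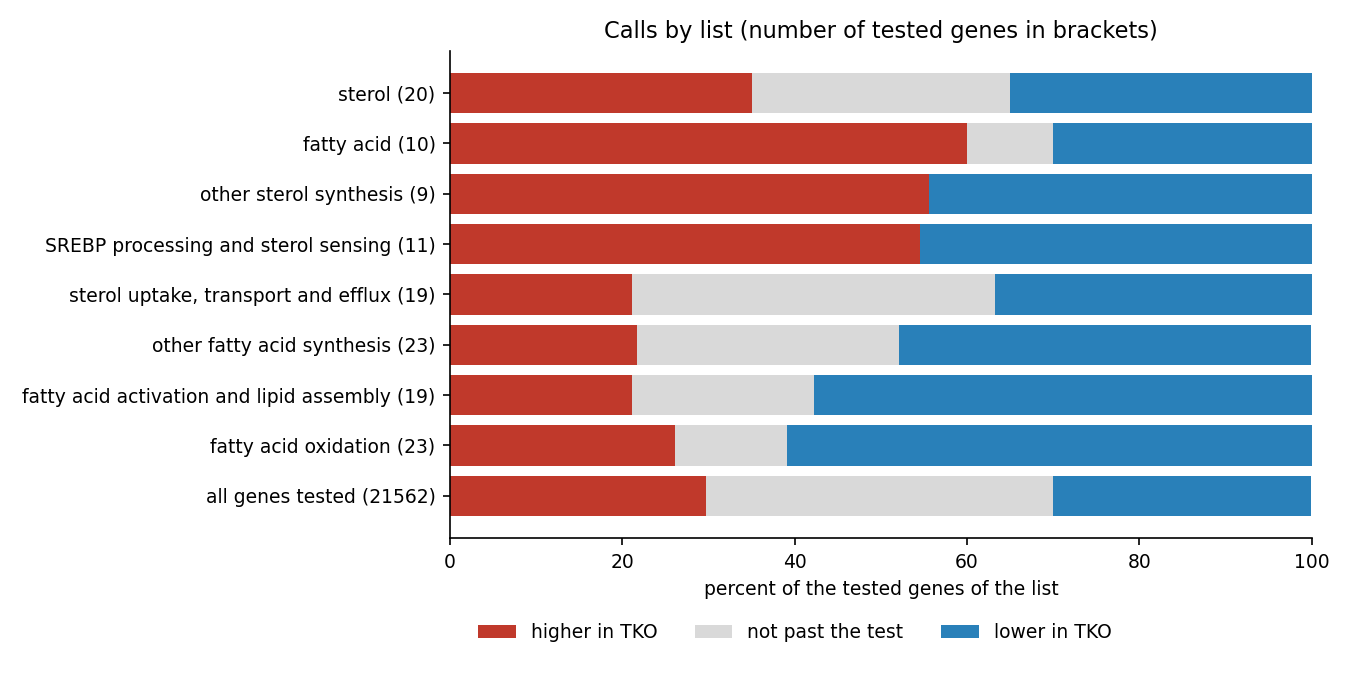
Percent of the tested genes of each list (x axis) that were higher in TKO, not past the test or lower in TKO, with the list and its number of tested genes on the y axis. The sterol bar (35% higher, 35% lower) lies near that of all genes (29.7%, 29.9%), and the oxidation bar holds 60.9% lower.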

How the data were processed

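Total RNA of 3 TKO and 3 WT dishes was hybridised to 1-colour arrays, 1 dish each. Per the file headers, the deposited processed signal of each spot is an intensity on a linear scale, already background-subtracted within the array by Agilent Feature Extraction 11.5.1.1 (per the submitters' processing notes). The deposited flags (well above background, saturated, outlier) are another kind of value, 0 or 1. The authors' deposited table of log2 values correlated at 1 with the scanner values and served as an alternative. Its column medians were -3.9, -3.74 and -3.82 in TKO and -3.97, -3.97 and -4.03 in WT, and the sources used here state neither its scale nor its centring.

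Control and outlier spots were left out, and spots of a probe were averaged on the log2 scale after subtracting each array's 75th percentile. Of 55681 probes, 30734 were well above background on at least 3 arrays of any group and were kept, and each gene was given by its brightest kept probe. Groups were compared with limma 3.58.1 in R 4.3.3 (two-sided, Benjamini-Hochberg over all 21562 genes), tested on simulated data. Probe positions are on mm9 per the file headers, and whether they lie in exons or untranslated regions is not given in the sources used here. Where a second probe is quoted, limma was fitted over all kept probes. Every one of the 30 genes is named, and of each further list up to 3 called rises and 3 called falls of the largest size. A gene that this rule names is not reported here. The members, lists and alternatives were chosen with earlier results of these data known. The number of arrays limits the precision.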

Additional observations from a re-analysis of the deposited data

How the results depend on the processing

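Under 18 alternative settings, 446 of the 540 differences of single genes kept their direction and their side of the threshold. Centring on the median turned Idi1 (-0.063), Fdft1 (-0.14), Sqle (-0.084), Cyp51 (-0.028), Tm7sf2 (-0.17), Ebp (-0.12) and Fads1 (-0.07). Lss turned to 0.083 with the array row as a block or the first row alone, which both rest on TKO replicate 1, and to 0.0197 without TKO replicate 2 (-0.073 to 0.0197 over single dishes left out), and Tm7sf2 to -0.0077 without WT replicate 2 (-0.0077 to 0.0612). Mvd turned to 0.14 with chromosome medians subtracted and to 0.0255 with the chromosome shift subtracted, an alternative chosen after seeing the data. With median centring, 3835 genes and 3 sterol genes were called higher. With no filter on dim probes, 9 sterol genes (4 higher) and 1 lower fatty acid gene were called, the same counts as with the replicate block. The share of all genes called was 35.4% with no filter and 54% with the replicate block, against 59.7% in the reported fit. Lower fatty acid genes also numbered 1 with the array row as a block, the first row alone and chromosome medians subtracted. Leaving out 1 dish at a time gave 9 to 12 sterol genes (4 to 6 higher), with 9 without WT replicate 2 and 4 higher without WT replicate 1 or 2. It gave 1 to 3 lower fatty acid genes, with 1 without each dish except TKO replicate 1. Of all genes, 53.5% (without WT replicate 2) to 57.8% (without TKO replicate 1) were called in these fits. The causes were not tested.

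Replicate numbers did not pair the dishes: deviations of same-numbered dishes correlated at -0.069, -0.024 and 0.006. With the replicate block, 11646 genes (54% of all), 9 sterol genes and 7 fatty acid genes were called. Signal over background limits dim probes, and genes with small differences, such as Sqle, Scd1 and Scd2, lay near the threshold.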
